A study of Mus musculus with 47 samples.

Results

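Ighm, Jchain, Mzb1, Xbp1, Irf4, Derl3 and Tnfrsf13b, 7 genes of antibody-secreting cells and of the machinery that assembles and exports immunoglobulin, were followed across the leukaemic spleens of 47 mice. They are 7 of the 18193 genes named by a probe set of 1 gene on the arrays, and each gene was read from its probe set with the highest mean over the 47 arrays. Vpreb1, the surrogate light chain gene of B cell precursors, was taken as the reference against which Mzb1 and Jchain were set.

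The mice carried Sleeping Beauty transposition, in which a transposase moves a mutagenic transposon through the genome until a tumour forms. All 47 carried the Cre transgene Tg(ACTB-cre)2Mrt, named for the ACTB promoter, together with the transposase allele Gt(ROSA)26Sortm2(sb11)Njen. The transposon array came from 1 of 2 lines: TgTn(sb-T2/Onc2)6070Njen in 26 mice and TgTn(sb-T2/Onc2)6113Njen in 21 mice. Every spleen was collected at a terminal stage of a leukaemia called myeloid and undifferentiated, at a labelled age of 32 to 97 (median 68), with no unit given. A transposon insertion in Erg, an ETS transcription factor gene of blood stem cells, was labelled present in 26 mice and absent in 21. Of the mice with an Erg insertion, 17 were of line 6070 and 9 of line 6113, against 9 and 12 of those without. There was no healthy spleen, so each value is compared only with other leukaemic spleens.

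Each value is 1 array of bulk RNA on the log2 RMA scale, on which the array medians lay between 5.19 and 5.24 and the lower quartile of all values was 5.08. In bulk RNA, fewer cells of a type and less RNA per cell cannot be told apart. The sex labels matched the level of Xist, the X-inactivation RNA, in 23 arrays and did not in 24, and every comparison by label below rests on labels used as given. Arrays are named by the sex and number in their titles. The labelled diagnosis was set against myeloid, erythroid and progenitor markers. Of 6 monocyte and macrophage genes, the lysozyme gene Lyz2 and Ctss were above log2 7 in all 47 arrays, the macrophage receptor gene Csf1r in 44, Mrc1 in 2 and Cd68 and Adgre1 in 0. Of 9 neutrophil genes, S100a8 was above 7 in 30, S100a9 in 29, Ngp in 17, Camp in 16, Ltf in 8, the granule enzyme gene Mpo in 6, Prtn3 and Ctsg in 4 and Elane in 0. Of 9 erythroid genes, Tfrc was above 7 in 47, Car1 and Slc4a1 in 45, Ermap in 44, Klf1 in 43, Rhag in 41, Alas2 in 34, Gata1 in 31 and Epor in 1. Of 11 stem and progenitor genes, Lmo2 was above 7 in 46, Sox4 in 24, Erg in 17, Gata2 in 16, Flt3 in 9 and Mecom in 4, and the other 5, Kit and Cd34 among them, in 0.

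A B cell that becomes a plasma cell turns over its transcription programme, in which Irf4 and Prdm1 act early and Xbp1, switched on through the unfolded protein response, enlarges the endoplasmic reticulum (ER). Ighm encodes the heavy chain of IgM, and Jchain encodes the joining chain that links IgM and IgA units into polymers. Mzb1 is an ER chaperone of marginal zone and other B cells that helps IgM assembly, and Derl3 belongs to the channel that removes misfolded proteins from the ER. Tnfrsf13b, or TACI, is a receptor for the survival ligands BAFF and APRIL. None of these genes is limited to plasma cells: Mzb1 is also expressed in plasmacytoid dendritic cells, and Xbp1 in many secretory and myeloid cells.

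Promoter windows from 250 bases before to 50 after the gene start were available for 5 of the 7 genes, from RefSeq on GRCm38.p6. The windows of Derl3, the one member whose window held a motif searched, of Jchain and of Vpreb1 are shown 5′ to 3′ on the strand of the gene, and the last 2 are shown because Jchain and Vpreb1 are the predictors Mzb1 was set against. Capitals in Derl3 mark the fixed letters of the ER stress response element, searched on both strands as CCAAT, 9 bases of any kind and CCACG, and found on the minus strand at -156 to -138 from the start. The windows lie at chr10:75893148-75893447 on the plus strand for Derl3, and on the minus strand at chr5:88527848-88528147 for Jchain and chr16:16869206-16869505 for Vpreb1.
Derl3: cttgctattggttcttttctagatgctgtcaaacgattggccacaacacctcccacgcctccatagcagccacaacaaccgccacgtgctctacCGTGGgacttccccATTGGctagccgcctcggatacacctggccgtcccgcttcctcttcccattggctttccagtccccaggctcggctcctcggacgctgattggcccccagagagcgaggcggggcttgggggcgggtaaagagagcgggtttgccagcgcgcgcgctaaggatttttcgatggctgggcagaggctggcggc
Jchain: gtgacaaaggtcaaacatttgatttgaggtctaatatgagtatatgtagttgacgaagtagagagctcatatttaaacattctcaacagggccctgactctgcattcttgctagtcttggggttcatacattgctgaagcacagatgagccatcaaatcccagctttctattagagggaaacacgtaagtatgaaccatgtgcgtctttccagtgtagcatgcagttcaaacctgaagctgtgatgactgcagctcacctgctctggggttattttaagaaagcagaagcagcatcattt
Vpreb1: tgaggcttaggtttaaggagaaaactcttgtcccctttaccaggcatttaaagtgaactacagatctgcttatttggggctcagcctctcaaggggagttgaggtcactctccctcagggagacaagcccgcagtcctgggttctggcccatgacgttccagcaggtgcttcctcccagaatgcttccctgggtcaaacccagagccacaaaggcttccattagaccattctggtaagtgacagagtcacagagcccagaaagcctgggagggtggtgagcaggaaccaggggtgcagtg
The ER stress response element is in 0.119% of 32851 windows of this length, and in 8 of the 28 genes of the XBP1 target and ER secretion list that have a window: Calr, Canx, Creld2, Dnajc3, Hsp90b1, Hspa5, Pdia6 and Syvn1. The octamer ATTTGCAT, in 1.74% of windows, and the EBF palindrome (TCCC, 2 bases of any kind and GGGA), in 0.904%, were not in the windows of Jchain, Derl3 or Vpreb1. A match describes letters in the window and is not a measured binding site.

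Ighm was above log2 7 in every spleen and Jchain in a part of them. Of 17 other immunoglobulin genes, the IgA heavy chain gene Igha was above 7 in 28 arrays and the kappa variable gene Igkv8-30 in 25, and 13 were in 0. Ighm was bright in every spleen, from log2 7.46 through a median of 9.32 to 12.19, with all 47 arrays above 7 and 42 above 8. Its highest values were in the arrays Female 12 and Female 13. A second Ighm probe set followed the one used with r = 0.98 over the 47 arrays, while the other 9 of its 11 probe sets had r from -0.08 to 0.59 with it. Several Ighm probe sets can read related immunoglobulin transcripts, so the gene's level is uncertain beyond these 2. Jchain ran from 5.53 through 6.87 to 9.35 and was above 7 in 19 arrays and above 8 in 11. Female 12, Female 13 and Male 3 held its 3 highest values.

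Mzb1 was split between a large low set and a smaller high set. It ran from 5.41 through a median of 6.02 to 10.19, with 27 arrays below 6.2 and 17 above 7. Its SD of 1.61 was larger than that of 99.9% of all genes. Xbp1, in contrast, was well expressed everywhere, from 7.44 through 8.44 to 9.77, with Female 15 and Male 10 highest and all 47 arrays above 7. Its SD was 0.41.

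The other 3 members were dim. Irf4, the transcription factor of plasma cell differentiation and of activated lymphocytes, ran from 5.06 through 5.21 to 7.50 and was above 7 in 1 array, Male 17, and above 6 in 13. Of those 13 arrays, 12 were also above 7 for Mzb1. A second Irf4 probe set stayed between 5.08 and 5.34 and had r = 0.49 with the one used. Its r was 0.26 with Jchain and 0.43 with Mzb1, against 0.68 and 0.82 for the one used, so the Irf4 results below rest on 1 probe set. Tnfrsf13b ran from 5.13 through 5.52 to 7.35, with Female 4 and Male 17 above 7 and 14 arrays above 6. All 14 were among the 17 arrays with Mzb1 above 7. Derl3 stayed between 5.16 and 5.48 (median 5.33), above 6 in 0 arrays, so its probe set lay close to the lower end of the scale in all 47 spleens and its variation spans 0.32 log2 units.

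The name plasma cell was checked against a list of 10 other identity genes of that cell. Of these, 7 were above 7 in 0 arrays. Sdc1 (CD138, the surface marker of plasma cells) reached at most 6.67, Prdm1 (Blimp-1, the repressor that ends the B cell programme) at most 5.77, and Tnfrsf17 (BCMA, the receptor of long-lived plasma cells) at most 5.15. Ell2, an elongation factor that favours secreted heavy chain messages and is also used in other cells, was above 7 in 32 arrays. Slamf7 and Pim2 were above 7 in 1 array each. Sdc1, Prdm1 and Tnfrsf17 thus stayed below 7 in every spleen. Levels are not set against each other between probe sets, so a level below 7 does not show that a gene was absent. The 7 members are treated here as a set of immunoglobulin and secretion genes, not as a measure of plasma cells.

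**Figure D1:**
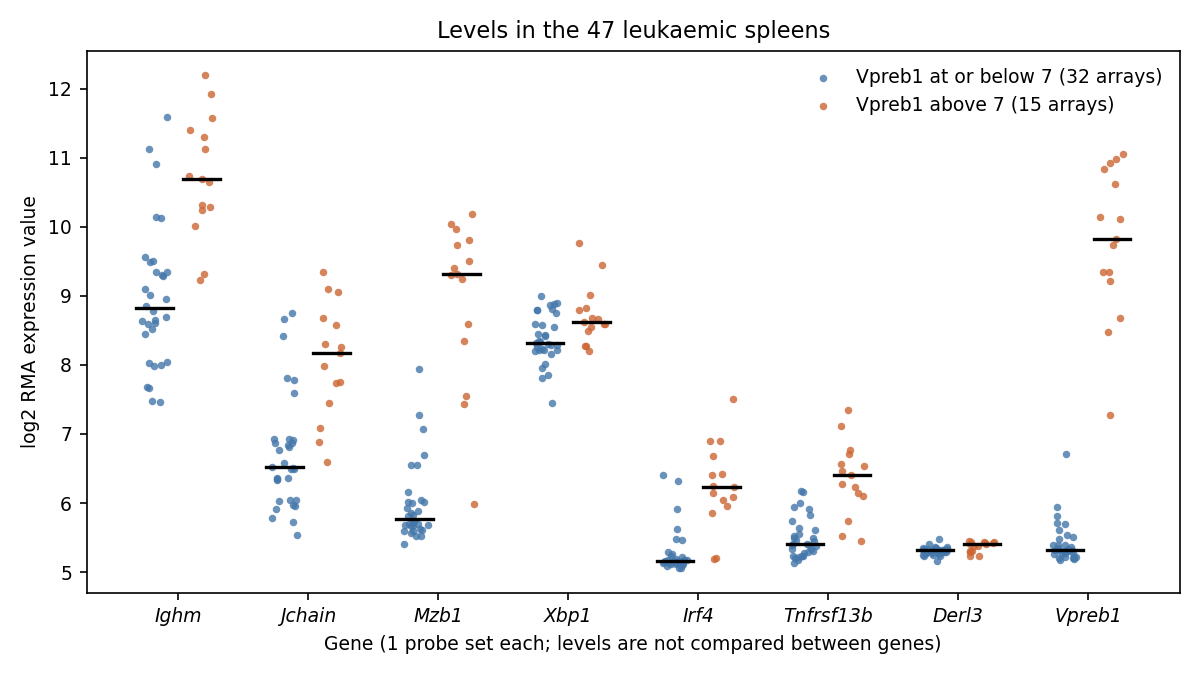
Log2 RMA expression values (vertical axis) of the 7 genes and Vpreb1 in 47 arrays, 1 point per array, split into the 32 arrays with Vpreb1 at or below 7 and the 15 above, with black bars at the medians. Mzb1 has medians of 5.78 and 9.31 in the 2 sets, Xbp1 8.32 and 8.62, and Derl3 stays below 5.5 in both.

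Vpreb1 itself was split at log2 7 into 2 sets, called clusters here. Male 12 at 6.71 and Female 8 at 7.28 lay between the bulk of the 2 sets, so the cut decides where they fall. Correlations within the clusters were not run at another cut. In 32 arrays it was at or below log2 7, the highest at 6.71 and the next at 5.95, and in 15 arrays it was above 7, the lowest at 7.28, the next at 8.47 and the highest at 11.06. A pooled correlation with Vpreb1 would mainly repeat this step, so correlations with it are given within each cluster, and for pairs of members the values within the clusters stand beside the pooled ones. Mzb1 was above 7 in 14 of the 15 arrays with high Vpreb1 and in 3 of the other 32. Female 8, with the lowest Vpreb1 of the high cluster, was the array in which Mzb1 was not, at 5.99. Jchain was above 7 in 13 of the 15 and in 6 of the 32, and its ranges in the clusters, 6.59 to 9.35 and 5.53 to 8.75, overlapped.

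Across the 47 arrays the members varied together, most closely Ighm with Jchain and Mzb1 with Tnfrsf13b. All 21 pairs had a positive Pearson r, from 0.17 to 0.92 with a median of 0.51. In the 32 arrays with low Vpreb1, 20 of 21 were positive, from -0.03 to 0.87 with a median of 0.43. In the 15 with high Vpreb1, 15 of 21 were positive, from -0.46 to 0.85 with a median of 0.21. Over all 47 arrays Ighm and Jchain gave the highest r, 0.92 (rho = 0.92, permutation p = 1e-05, the smallest that 100000 resamples can give). Dropping the 2 arrays most distant from the Ighm median left r at 0.90. The same pair had r = 0.87 in the 32 arrays with low Vpreb1 and 0.85 in the 15 with high Vpreb1. Each doubling of Ighm went with 0.75 ± 0.048 (SE) log2 units of Jchain in limma's fit along Ighm over all genes (adjusted p = 4.4e-16).

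Mzb1 and Tnfrsf13b had r = 0.88 over 47 arrays (rho = 0.86, permutation p = 1e-05; 0.89 without the 2 arrays farthest from the Mzb1 median), 0.73 with low Vpreb1 and 0.73 with high Vpreb1. Mzb1 and Irf4 had r = 0.82 (rho = 0.80, permutation p = 1e-05), 0.63 and 0.50. The value of 0.63 in the low cluster became 0.37 without the 2 arrays farthest from its Mzb1 median, and the 0.50 in the high cluster became -0.10. Irf4 and Tnfrsf13b had r = 0.77, with 0.71 in the low cluster and 0.39 in the high cluster.

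A pair was called when limma's adjusted p, over all 18177 genes fitted, was under 0.05 with each gene in turn as the predictor. By that rule 12 of the 21 pairs were called, all 10 among Ighm, Jchain, Mzb1, Irf4 and Tnfrsf13b, with Derl3 added through Jchain and Irf4. Positive slopes were common in these arrays: along Ighm 10.9% of genes had a called positive slope, along Jchain 10.5%, along Mzb1 13.1%, along Irf4 13%, along Tnfrsf13b 13.6% and along Derl3 1.02%. Of the other 6 members, 4 were called along Ighm, 5 along Jchain, 6 along Mzb1, 5 along Irf4, 6 along Tnfrsf13b and 2 along Derl3. The call of Jchain with Derl3 held in 25 of the 47 fits that left out 1 array, with the larger of its 2 adjusted p-values from 0.016 to 0.10. In the 32 arrays with low Vpreb1 8 of the 21 pairs were called, where 3.5% of genes had a called positive slope along Jchain, 5.25% along Mzb1 and 0.066% along Vpreb1. Those shares were 0.0055%, 2.16% and 0.033% in the 15 with high Vpreb1, where 0 pairs were called by limma and 3 of 21 had a permutation p under 0.05. The Ighm and Jchain pair had an adjusted p of 0.069 along Ighm and 0.21 along Jchain there.

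Xbp1 varied less closely with the other members. Its r with them lay between 0.17 (Derl3) and 0.38 (Mzb1 and Tnfrsf13b), and 0 of its 6 pairs were called in both directions. The permutation p was 0.0085 with Mzb1 and 0.0095 with Tnfrsf13b. In 1 direction Xbp1 was called by limma along Mzb1 (adjusted p = 0.028) and along Tnfrsf13b (0.026). With high Vpreb1, its r was negative with Irf4 (-0.46, permutation p = 0.089), Ighm (-0.23) and Jchain (-0.23), and none of these was called by limma. Along Xbp1, 0 of 6 members, 0 of 10 plasma cell identity genes and 0 of 20 B cell genes had a slope called by limma (2, 1 and 1 had an unadjusted p under 0.05), where 4.3% of all genes had a positive one. By contrast 8 of 9 neutrophil genes and 8 of 37 genes of the XBP1 target and ER secretion list had a called positive slope along it.

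**Figure D2:**
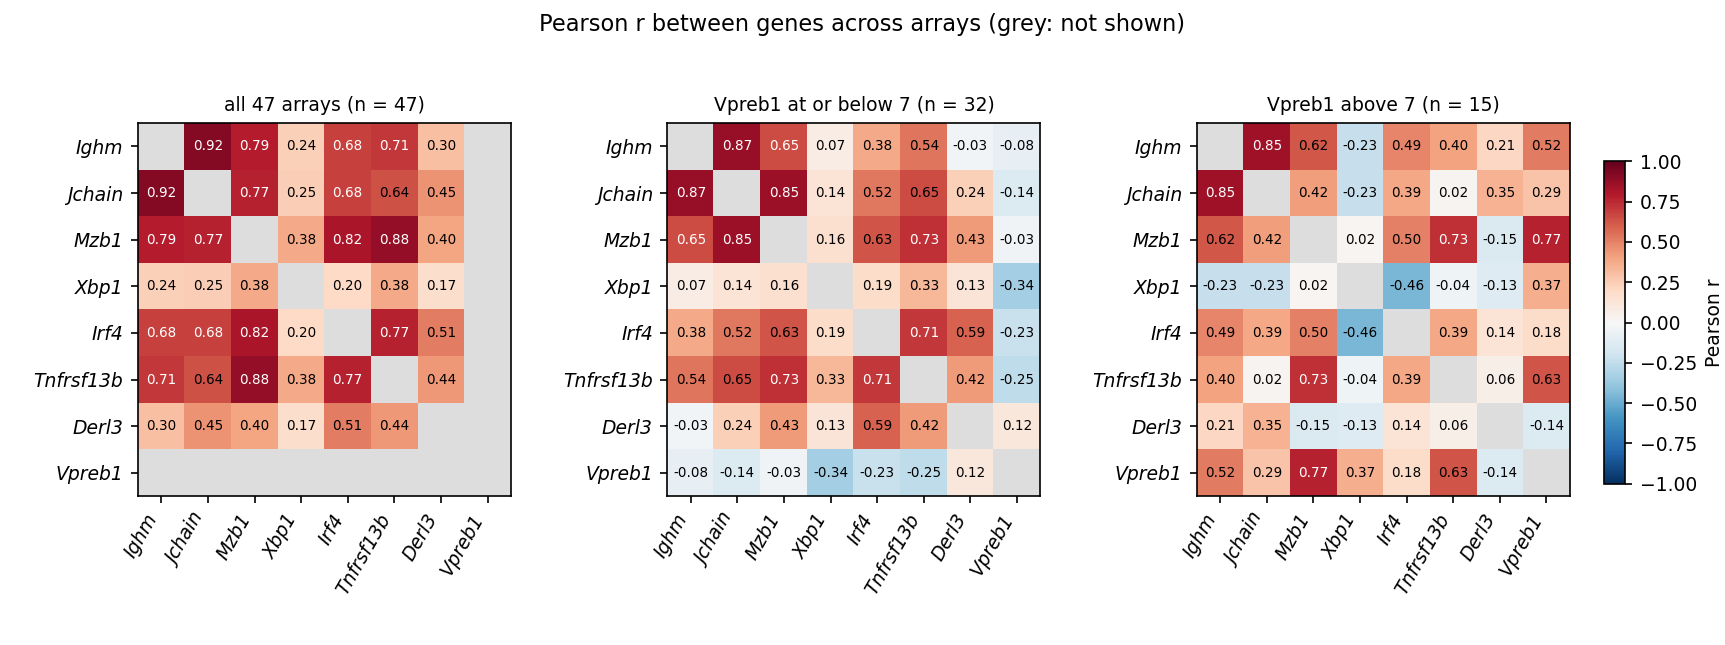
Pearson r between each pair of genes across all 47 arrays (left), the 32 arrays with Vpreb1 at or below 7 (middle) and the 15 above 7 (right), colours from -1 to 1; grey cells are the diagonal and the pooled values with Vpreb1, which are not given. Ighm and Jchain keep 0.92, 0.87 and 0.85, while Mzb1 with Vpreb1 is -0.03 in the middle panel and 0.77 in the right one.

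Mzb1 was set against Jchain and Vpreb1 within each cluster of spleens. In the 32 spleens with low Vpreb1, Mzb1 followed Jchain with r = 0.85 (rho = 0.68, permutation p = 1e-05; 0.76 without the 2 arrays farthest from the Jchain median), and its slope was 0.59 ± 0.064 log2 units per log2 unit of Jchain (limma adjusted p = 8.4e-07; 3.5% of genes had a called positive slope). With Vpreb1 it had r = -0.03 there (permutation p = 0.85), where Vpreb1 varied little. In the 15 spleens with high Vpreb1, Mzb1 followed Vpreb1 with r = 0.77 (rho = 0.66, permutation p = 0.00099), and its slope along Vpreb1 was 0.84 ± 0.18 (limma adjusted p = 0.094). Dropping the 2 arrays most distant from the Mzb1 median gave 0.69, and dropping the 2 most distant from the Vpreb1 median gave 0.44. With Jchain, Mzb1 had r = 0.42 in the high cluster (rho = 0.36, permutation p = 0.12), which became -0.05 without the 2 arrays farthest from the Mzb1 median. The difference between the clusters was not tested. Over all 47 arrays Mzb1 and Jchain had r = 0.77 (rho = 0.81, permutation p = 1e-05).

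The 6 spleens with Jchain above 7 and low Vpreb1 show Mzb1 where Jchain was high and Vpreb1 was not. Female 7 had Jchain at 8.75 and Mzb1 at 7.94, the highest Mzb1 of the low cluster. Male 18 had 8.67 and 7.28. Female 11 had 7.59 and 7.07. Mzb1 was below 7 in the other 3: Female 23 had Jchain at 7.81 and Mzb1 at 6.70, Male 9 had 7.79 and 6.55, and Male 20 had 8.42 and 6.55. Among the spleens with high Vpreb1 and Mzb1 above 7, 2 had Jchain at or below 7. In Male 17 Vpreb1 was 9.21, Jchain 6.89 and Mzb1 9.30, and in Male 10 Vpreb1 was 9.82, Jchain 6.59 and Mzb1 7.43. Of the 6 spleens with Jchain above 7 and low Vpreb1, 4 also had Cd3d, a chain of the T cell receptor complex, above 7: 10.23 in Female 7, 10.02 in Female 23, 9.42 in Male 18 and 7.46 in Female 11. Over all 47 arrays Cd3d was above 7 in 9.

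**Figure D3:**
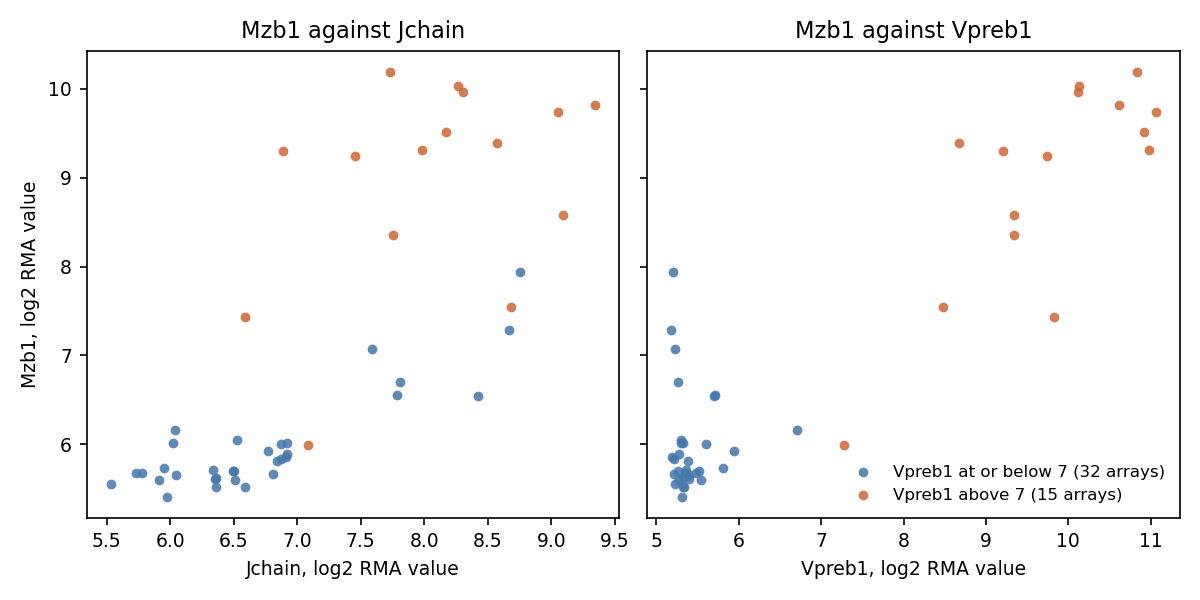
Mzb1 (vertical axes, log2 RMA value) against Jchain (left) and Vpreb1 (right), 1 point per array, in the 32 arrays with Vpreb1 at or below 7 and the 15 above. In the left panel the high-Vpreb1 arrays lie above the low-Vpreb1 arrays of like Jchain except for Female 8 at 5.99 and Female 19 at 7.55; in the right panel Mzb1 ranges from 5.41 to 7.94 where Vpreb1 is low.

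A joint fit gave each gene a Jchain term and a Vpreb1 term, both per SD of the predictor (1.04 log2 units for Jchain, 2.1 for Vpreb1). Because most Vpreb1 values lie well below or well above log2 7, its term is in large part the step between the 2 clusters. Mzb1 had both: 0.55 ± 0.093 log2 units per SD of Jchain (limma adjusted p = 0.0008; 2.29% of genes had a called positive Jchain term) and 1.14 ± 0.093 per SD of Vpreb1 (adjusted p = 1.9e-12; 5.36% of genes). The Jchain term lost its call in some subsets of the arrays. It was 0.45 in line 6070 (limma adjusted p = 0.071), 0.64 in line 6113 (0.10) and 0.36 in the arrays with an Erg insertion label (0.11). It passed in those without that label (0.85, 0.0065), and why the subsets differ was not tested. The Vpreb1 term was larger by 0.59 ± 0.17, with an unadjusted p of 0.00091 and an adjusted p of 0.066, so by limma over all genes, of which 0.506% had a called positive difference, it missed the threshold of 0.05. It passed in 5 of the 47 fits without 1 array: 0.76 without Female 7 (adjusted p = 0.027), 0.68 without Male 10 (0.032), 0.62 without Female 8 (0.041), 0.62 without Male 2 (0.043) and 0.64 without Female 11 (0.047). On ranks in place of log2 values the Jchain term of Mzb1 still passed (limma adjusted p = 0.0009) and the Vpreb1 term did not (0.23). The difference turned to -4.27 ranks per SD and was not called (0.48). Ranks spread the 32 arrays with low Vpreb1 (median 5.33), where it varied little, over most of the rank range. That limit holds for every rank result below.

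Ighm had a larger Jchain than Vpreb1 term. Its Jchain term was 1.02 ± 0.089 (adjusted p = 4.1e-11). Its Vpreb1 term was 0.23 ± 0.089 (0.084), which passed without Male 18 or without Female 23 (0.12 to 0.28 with each array left out), and the difference of -0.79 ± 0.16 passed (adjusted p = 0.0052; 0.523% of genes had a called negative difference). Irf4 had a Jchain term of 0.25 ± 0.074 (adjusted p = 0.042) and a Vpreb1 term of 0.29 ± 0.074 (0.0076), and the first, 0.20 to 0.31 with each array left out, lost its call (adjusted p up to 0.17) without Female 7, 12, 18, 19 or 23 or Male 10, 12, 18, 19 or 21. Tnfrsf13b had a Vpreb1 term of 0.34 ± 0.061 (adjusted p = 0.00011) and a Jchain term of 0.14 ± 0.061 that missed (0.17) but passed without Male 17 (0.11 to 0.18 with each array left out). For Irf4 and Tnfrsf13b the difference between the terms missed the threshold (adjusted p = 0.94 and 0.43). Xbp1 and Derl3 had neither term called. The Vpreb1 term of Xbp1 was 0.16 ± 0.070 (limma unadjusted p = 0.024, adjusted p = 0.13). The Jchain term of Derl3 was 0.025 ± 0.012 (0.041 and 0.22). On ranks the Vpreb1 terms of Irf4 and Tnfrsf13b missed (adjusted p = 0.53 and 0.57) and their Jchain terms passed (0.0018 and 0.0019).

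**Figure D4:**
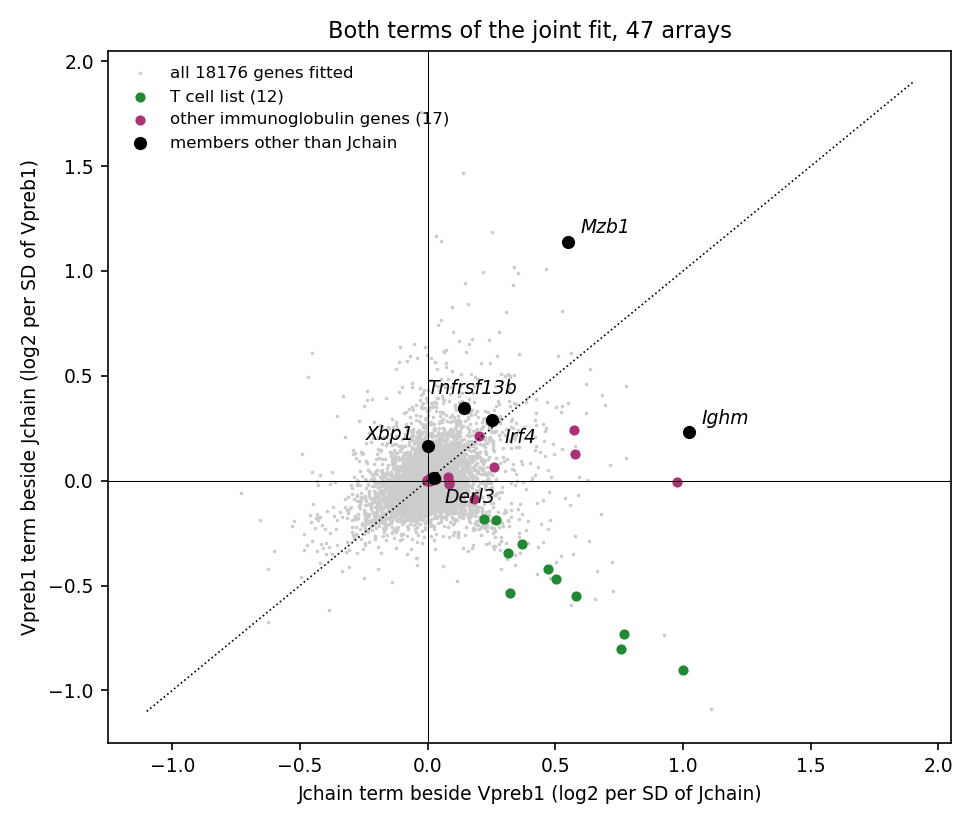
Jchain term (horizontal axis) and Vpreb1 term (vertical axis) of the joint fit, in log2 units per SD of the predictor, for all 18176 genes fitted (grey), the 6 members other than Jchain (black), 17 other immunoglobulin genes and 12 T cell genes; the dotted line marks equal terms. Mzb1 lies at 0.55 and 1.14 and Ighm at 1.02 and 0.23, on opposite sides of the line. The difference between the terms was called for Ighm and not for Mzb1.

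The genes nearest to each member in r over the 47 arrays differed from member to member. For Jchain these were immunoglobulin genes: Igkv8-30 (r = 0.96), Ighm (0.92), Iglv1 (0.85) and 2 further kappa variable genes (0.83 each). Ighm had Igkv8-30 (0.93), Jchain (0.92), a further kappa variable gene (0.84), Iglv1 (0.83) and H2-Ob (0.83), a regulator of antigen loading in B cells. Probe sets of variable segments can bind related segments, so the symbol names the probe set and not a clone. Igkv8-30 kept r = 0.95 with Jchain in the low Vpreb1 cluster and 0.90 in the high one.

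Mzb1 had genes of the B cell programme nearest: Pou2af1, the co-activator OBF-1 (r = 0.98), Ebf1, a founding factor of the B lineage (0.96), Pde2a (0.95), the receptor chain gene Cd79b (0.95) and the adaptor gene Blnk (0.95). Pou2af1 kept 0.85 in the low cluster and 0.93 in the high one, and Ebf1 0.82 and 0.94, whereas Pde2a had 0.42 and 0.94. Irf4 was nearest to Jakmip1 (0.89), Tnfrsf19 (0.87), Traf3ip2 (0.86), Pou2af1 (0.85) and Cyfip2 (0.85). Tnfrsf13b was nearest to Lrmp, an ER membrane protein of lymphocytes (0.92), St8sia4 (0.91), Plekho1 (0.91), Itpr3 (0.90) and Cerk (0.90).

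Xbp1 had another kind of neighbour: Pxn (r = 0.71), Ccn3 (0.67), Anxa1, an annexin abundant in neutrophils (0.66), Cebpd, a factor of myeloid differentiation (0.66), and Mgst1 (0.63). Pxn kept 0.60 in the low cluster and 0.86 in the high one. Derl3, with its narrow range, had Plxna3 (0.65), Galnt10 (0.63), Asic1 (0.61), Rph3al (0.59) and Gm3764 (0.58), all with medians below 5.4, near the lower end of the scale. These r values describe the 47 arrays, the genes having been picked as the highest of all.

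Immunoglobulin genes other than Ighm had called Jchain terms, and no called Vpreb1 term, with both predictors in the fit. Of 17 such genes, 13 had a called positive slope along Jchain (10.5% of all genes did) and 10 along Vpreb1 (10.9%). In the joint fit 8 had a called positive Jchain term, beside 2.29% of all genes. A Vpreb1 term was called by limma in 0, in either direction (3 had an unadjusted p under 0.05), beside 5.36% positive and 6.07% negative over all genes. The difference between the terms was called negative in 2 of the 17, beside 0.523% of all genes. Igkv8-30, above 7 in 25 arrays, had a Jchain term of 0.98 ± 0.056 (limma adjusted p = 1.6e-17) and a Vpreb1 term of -0.0041 ± 0.056 (0.98). Iglv1 had 0.58 ± 0.072 (adjusted p = 1.9e-06) and 0.13 ± 0.072 (0.28). Igha, the heavy chain of IgA, was above 7 in 28 arrays and had a called Jchain term of 0.57, and 13 of the 17 genes were above 7 in 0 arrays. The count of Jchain terms was between 7 and 10 when 1 array was left out.

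Of the 10 plasma cell identity genes, 5 had a called positive slope along Jchain and 1 a negative one, beside 10.5% and 16.2% of all genes. Eaf2 (r = 0.73 with Jchain), Prdm1 (0.62), Txndc5 (0.56), a disulfide isomerase of secretory cells, Slamf7 (0.55) and Sdc1 (0.47) were the positive ones and Ell2 (-0.54) was the negative one. Eaf2 ran only from 5.14 to 5.66 and Prdm1 from 5.04 to 5.77, near the lower end of the scale. The slope was 0.088 ± 0.012 log2 units per log2 unit of Jchain for Eaf2 (limma adjusted p = 2.9e-06), 0.082 ± 0.015 for Prdm1 (0.0001), 0.28 ± 0.062 for Slamf7 (0.00072) and -0.39 ± 0.089 for Ell2 (0.0009). Beside Vpreb1, Eaf2, Prdm1, Txndc5 and Sdc1 (0.21 per SD) kept a called positive Jchain term (2.29% of all genes had one). That count of 4 dropped to 1 without Female 7 or without Male 18. Slamf7 had a called Vpreb1 term (0.37 ± 0.06, adjusted p = 2.2e-05), with a Jchain term of 0.060 (0.60). On ranks 6 of the 10 had a called positive Jchain term and 1 a negative one, and 0 a Vpreb1 term, so the call of Slamf7 was lost. Shares over all genes were not counted on ranks, so no background stands beside the rank counts here or for the lists below.

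The machinery of secretion did not move as 1 block with Jchain. Of 37 genes of the XBP1 target and ER secretion list, 6 had a called positive and 7 a called negative slope along Jchain, beside 10.5% and 16.2% of all genes, and the median slope was 0.0024, beside -0.0059 over all genes. The folding enzyme gene Pdia4 had 0.18 ± 0.026 (limma adjusted p = 3.4e-06), the coat protein gene Sec24d 0.13 ± 0.026 (0.00018), and the signal peptidase subunit gene Spcs3 -0.28 ± 0.046 (2e-05). Syvn1, the ubiquitin ligase HRD1 of ER-associated degradation, went with Vpreb1 in the joint fit (0.35 ± 0.036, adjusted p = 2.4e-09) and had a Jchain term of -0.023 ± 0.036 (0.76). Hsp90b1, an ER chaperone, had a called Vpreb1 term of 0.18 ± 0.047 (0.011), and Herpud1 one of 0.21. Ssr2 (-0.11) and Spcs1 (-0.14) had called negative ones. In that fit 2 of the 37 had a called positive and 1 a called negative Jchain term, beside 2.29% and 1.76% of all genes, and 3 and 2 a Vpreb1 term, beside 5.36% and 6.07%. The positive Jchain calls became 0 without Female 7 or Male 18, the negative one was lost without Female 7, Male 18 or Female 23, and the negative Vpreb1 calls became 0 without Male 4 and the positive ones 2 without Male 10. On ranks 4 had a called positive and 7 a called negative Jchain term, and 2 and 0 a Vpreb1 term.

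Of 8 ER stress sensors and effectors, 1 had a called positive slope along Jchain and 5 a called negative one, beside 10.5% and 16.2% of all genes. The positive one was Eif2ak3, the ER stress kinase PERK (0.26 ± 0.037, limma adjusted p = 3.5e-06). Among the negative ones were the stress transcription factor genes Atf4 (-0.20 ± 0.045, 0.00057) and Ddit3 (-0.21 ± 0.044, 0.00032). Beside Vpreb1, Eif2ak3 had a Jchain term of 0.16 ± 0.041 (adjusted p = 0.027), which lost its call without Female 7, Male 10, Male 18 or Female 23, and a Vpreb1 term of 0.18 ± 0.041 (0.0021). Atf4 had a Jchain term of -0.19 ± 0.059 that narrowly missed (0.052), and Ddit3 one of -0.14 ± 0.055 (0.12). On ranks 5 of the 8 had a called negative Jchain term and 1 a positive one, and 0 a Vpreb1 term.

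Among the partners of Tnfrsf13b, the BAFF receptor gene Tnfrsf13c had a called slope along Jchain (0.31 ± 0.054, limma adjusted p = 3.3e-05) and along Vpreb1 (0.19 ± 0.018, 2.6e-11). The ligand gene Tnfsf13b (BAFF), at most 5.49, and Tnfrsf17, at most 5.15, were near the lower end of the scale and had no called slope along either. Beside Jchain, Tnfrsf13c had a Vpreb1 term of 0.35 ± 0.048 (adjusted p = 7.4e-07), and its Jchain term of 0.11 ± 0.048 missed (0.18). On ranks 0 of the 3 partners tested had a called Vpreb1 term and 1 had a called Jchain term. Of 7 relatives of Irf4, Irf8 (0.39 ± 0.057, adjusted p = 3.5e-06), Irf5 (0.12 ± 0.021, 2.5e-05) and Irf1 (0.26 ± 0.054, 0.00027) had called positive slopes along Jchain and Irf7, an interferon-response gene (r = -0.36), had a called negative one.

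Markers of other cells moved with Jchain and Mzb1. With the mean of the erythroid list as a covariate 14 of the 21 member pairs were called and the excess of the Vpreb1 over the Jchain term of Mzb1 was 0.58 (limma adjusted p = 0.031), and the part of the other lists in the results above was not tested. Of 20 B cell genes 19 had a called positive slope along Jchain and 18 along Mzb1, and of 11 B cell precursor genes 10 along each. Over all genes the shares were 10.5% along Jchain and 13.1% along Mzb1. They also stand beside the positive counts of the other lists in this paragraph. Pou2af1 had a slope of 1.04 ± 0.14 along Jchain (limma adjusted p = 9.7e-07), and Cr2, the complement receptor of mature B cells, 0.27 ± 0.034 (3.8e-07). The mean level of the B cell precursor list ran from 5.20 to 6.67 with low Vpreb1 and from 5.62 to 8.02 with high Vpreb1. Of 12 genes of plasmacytoid dendritic cells, 7 had a called positive slope along Jchain, led by Irf8 and Spib (0.47 ± 0.076, 1.5e-05), which B cells also express. The other 5 were not called in either direction. Siglech, a defining marker of plasmacytoid dendritic cells, was at most 5.61 and had r = 0.44 with Jchain. The part of plasmacytoid dendritic cells in these slopes was not tested. Of 9 erythroid genes, 5 had a called negative slope along Jchain (16.2% of all genes) and 6 along Mzb1 (21.1%), while Slc4a1, the band 3 anion exchanger gene (r = 0.38), had a called positive one along Jchain. Of 9 neutrophil genes, 4 had a called positive slope along Jchain and 5 along Mzb1, with S100a8 at 0.90 ± 0.25 along Jchain (adjusted p = 0.0054). The mean of the erythroid list had r = -0.30 with Jchain, -0.45 with Mzb1 and -0.53 with Tnfrsf13b. Of 6 monocyte and macrophage genes, 3 had a called positive slope along Jchain, among them Csf1r (0.61 ± 0.10, adjusted p = 3e-05). The difference between 3′ and 5′ control probe sets, a sign of RNA quality, had r between -0.30 (Irf4) and 0.21 (Xbp1) with the members.

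In the joint fit the B lineage lists held called terms of both kinds. Among 10 precursor genes, the recombination genes Rag1 (0.62 per SD), Rag2 (0.17) and Dntt (0.56), which act in the assembly of receptor genes, had called positive Jchain terms. The surrogate light chain genes Igll1 (1.76) and Vpreb3 (1.14), the receptor gene Il7r (0.80), Ebf1 (0.84) and Bst1 (0.41) had called positive Vpreb1 terms, and the difference between the terms was called in 3 of the 10. Without Female 7, Male 10 or Female 23 the first 3 calls were lost, while the count of 5 held in every fit that left out 1 array. Of 20 B cell genes, 8 had a called positive Jchain term and 12 a Vpreb1 term, beside 2.29% and 5.36% of all genes. The difference between the terms was called positive in 3 and negative in 1, beside 0.506% and 0.523% of all genes. It was not called for Rag1 (-0.30 ± 0.32, adjusted p = 0.75) or Cr2 (-0.13 ± 0.077, 0.48), so a term called for these genes and another not called do not show that the terms differ. The mature B cell genes Ms4a1, or CD20 (0.49), Cr2 (0.23) and Fcer2a, or CD23 (0.082), were among the 8 and not among the 12, and the 8 became 2 without Male 18. Pou2af1 (0.47 and 1.01), Cd79b (0.33 and 0.93), Blnk (0.36 and 0.99) and H2-Ob (0.28 and 0.28) had both terms called. On ranks the counts turned: 17 of 20 B cell genes had a called positive Jchain term and 1 a Vpreb1 term, and 7 and 2 of 10 precursor genes. Without the shares over all genes on ranks, a turn in these lists cannot be told from one in all genes.

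T cell genes took opposite terms of the joint fit. Along Jchain alone 0 of 12 were called by limma, and 6 had an unadjusted p under 0.05, Cd247, Cd3d and Cd5 with the smallest (0.02, 0.027 and 0.03). With Vpreb1 in the fit, 8 of 12 had a called positive Jchain term, beside 2.29% of all genes, and 9 of 12 a called negative Vpreb1 term, beside 6.07%. Cd3d had 1.00 ± 0.21 per SD of Jchain (adjusted p = 0.0073) and -0.90 ± 0.21 per SD of Vpreb1 (0.0032), and Cd3g had 0.76 ± 0.16 (0.0085) and -0.80 ± 0.16 (0.00066). The difference between the terms was called negative in 8 of 12, beside 0.523% of all genes. The 8 fell to 2 without Female 7 and to 2 without Male 18, and the 9 fell to 6 without Female 7. On ranks the counts were 10 and 5. The mean level of the list ran from 5.28 to 7.87 with low Vpreb1 and from 5.30 to 6.60 with high Vpreb1, and 2 of the 12 genes were above 7 in 0 arrays.

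**Figure D5:**
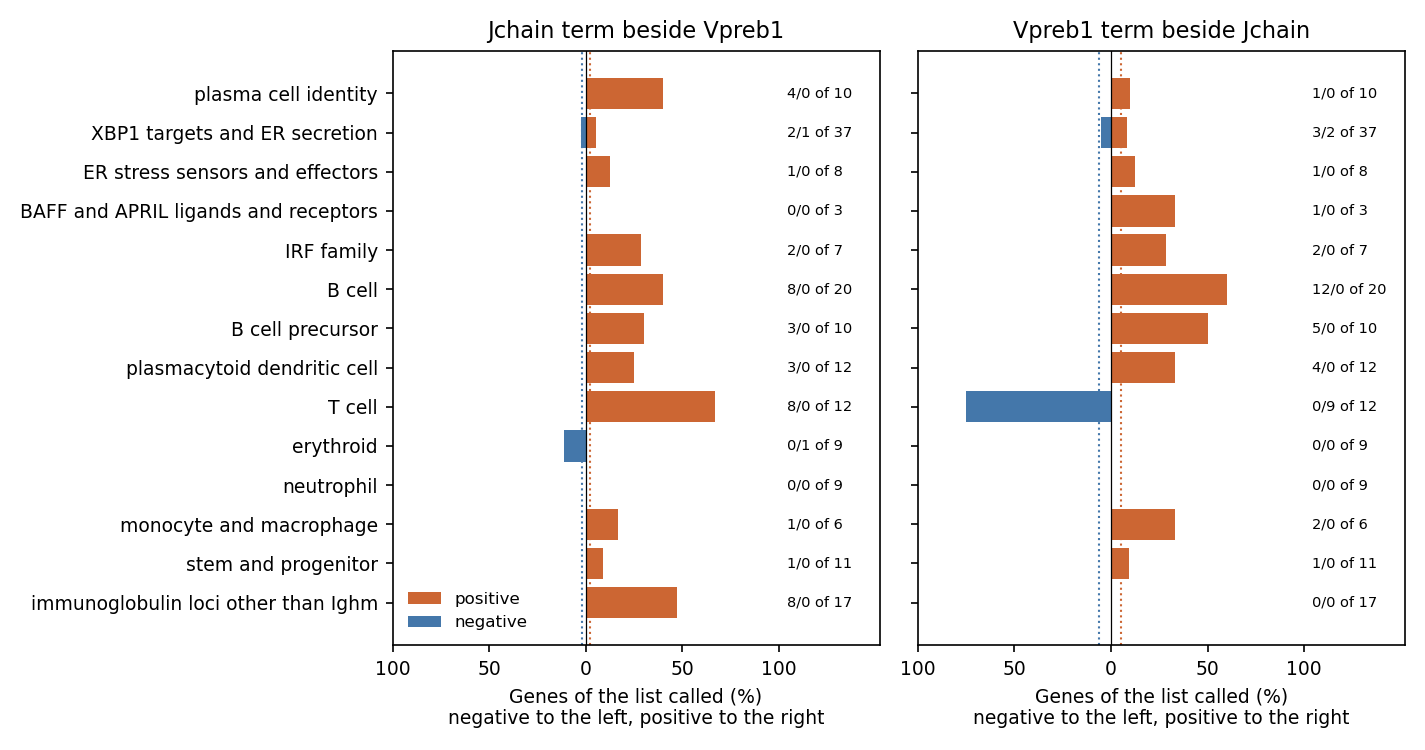
Share of the genes of each list with a called Jchain term (left) and Vpreb1 term (right) in the joint fit, as percent of the genes tested, positive to the right and negative to the left, with counts as positive/negative of tested; dotted lines are the shares over all genes. The immunoglobulin loci have 8 positive Jchain terms and 0 Vpreb1 terms of 17, and the T cell list has 8 positive Jchain terms and 9 negative Vpreb1 terms of 12.

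By the study's labels the members did not separate. For the Erg insertion label, line, sex label and age, limma called 0 of 18178 genes (0% each), with 666, 540, 460 and 688 genes at an unadjusted p under 0.05, and 0 of the 7 members was called. Jchain ran from 5.53 through 6.65 to 8.68 in the 26 spleens with an Erg insertion label and from 6.04 through 7.09 to 9.35 in the 21 without, and the groups overlapped over most of their range. The difference, with line and sex label in the fit, was -0.61 ± 0.29 log2 units (unadjusted p = 0.044, adjusted p = 0.999). All 7 differences by the Erg label were negative, with Ighm at -0.66 ± 0.37 and Mzb1 at -0.67 ± 0.46, and the members are not independent of each other. In the 23 arrays whose sex label matched Xist the differences were smaller or turned: -0.026 for Jchain, -0.34 for Ighm, -0.18 for Mzb1, 0.13 for Xbp1 and 0.031 for Irf4. With the number of the tumour identifier as a block, Xbp1 was at 0.0071. Mzb1 was above 7 in 7 of 26 spleens with the Erg label and in 10 of 21 without, and in 6 of 26 spleens of line 6070 and 11 of 21 of line 6113. Its difference between the lines was 0.78 ± 0.46 (adjusted p = 0.999). A p that misses the threshold does not show that the groups were alike. The sex label did not match Xist in 24 arrays, and the smallest limma adjusted p by sex label was 0.9998. That label thus gave no call for any gene tested. Whether the Erg, line and age labels also fail to match their arrays was not tested. Their 0 calls therefore cannot be read as a lack of difference.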

How the data were processed

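The table holds log2 values, deposited by the authors after RMA in the affy package of R 2.15, per the submitters' processing notes, for 47 arrays of 1 mouse each. RMA subtracts background, quantile normalizes the arrays and summarises probes, so levels are relative within an array and not set against each other between probe sets. Depth does not apply, and the number of arrays limits the precision. Of 45101 probe sets, 34945 named 1 gene, 932 several and 9160 none in the platform annotation, and 64 were controls. Genes had to exceed log2 5 in at least 9 arrays, which left 18178 of 18193. Fits used limma 3.58.1 (R 4.3.3), Benjamini-Hochberg adjusted across every gene fitted, with a threshold of 0.05: by label, along each member or Vpreb1, and along standardised Jchain and Vpreb1 together. Correlations over 21 member pairs and 7 pairs with Vpreb1 used scipy 1.17.1 with 100000 resamples, two-sided, and stand beside the limma p adjusted over all genes. Slope fits were tested on simulated data. Named genes were the members, the 5 highest in r with each, and up to 3 genes per list with the smallest p along Jchain and along Vpreb1; genes beyond these, such as Sdc1, Prdm1, Cd3d by array, Siglech, Igha, Irf7, Herpud1, the B lineage genes of the joint fit and the diagnosis markers, were chosen after their values were seen. The members, lists and tests were chosen with earlier results of these data known. Nothing states that mice were litter-independent, so p-values measure the spread between these mice. Alternatives were other filters, probe sets, covariates, ranks, subsets and leaving out each array.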

Additional observations from a re-analysis of the deposited data

How the results depend on the processing

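The count of member pairs called in both directions, 12 of 21, was 8 to 16 under the alternatives run on other filters, covariates, scales and subsets, and 11 to 15 with each array left out. It was 0 in the 15 arrays with Vpreb1 above 7, an alternative added after seeing the data, in which the slope of Derl3 along Mzb1 turned to -0.0094 (adjusted p = 0.81); fewer arrays were fitted there. The excess of the Vpreb1 over the Jchain term of Mzb1, 0.59 with an adjusted p of 0.066, passed the threshold with genes above log2 6 (0.59, adjusted p = 0.047, fewer genes tested), with the 3′ minus 5′ difference as a covariate (0.64, 0.039), with the erythroid mean as a covariate (0.58, 0.031) and in the arrays with an Erg insertion label (0.79, 0.027), and was 0.48 to 0.76 with each array left out. On ranks it was -4.27 (adjusted p = 0.48); the cause was not tested. The members by Erg insertion label, line, sex label and age, with the labels used as given, stayed at 0 calls under each alternative run. No paired analysis was possible because the replicate numbers only name arrays in accession order. Dim genes such as Derl3, close to the lower end of the scale, have little signal over background to vary.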
